A study of Mus musculus with 27 samples.

Results

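Retinas taken at embryonic day 17 (E17) were compared with retinas taken at embryonic day 14 (E14) by RNA sequencing. The comparison rests on 6 of the 27 libraries of the series, 3 per age, and members were chosen by age label alone. All 6 libraries are total RNA from whole retina of wild type C57BL/6J mice, an inbred laboratory strain kept on a daily light and dark cycle. No mutation or drug separates the groups, so that age is the labelled difference. According to the labels a library holds 3 retinas, whereas the methods of the study describe pools from several embryos of both sexes. Since nothing states which libraries share litters, p-values measure the spread between libraries of one age, which may be partly technical. The other 21 libraries run from postnatal day 1 (P1) to P60, and they served to estimate the spread and to show the later course of each gene. Unless a fit of the 6 embryonic libraries alone is named, the spread is thus pooled over embryonic and postnatal libraries. This holds also for genes that are hardly expressed after birth, whose spread in embryos may differ.

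The mouse retina is built from one pool of dividing progenitor cells, which leave the cell cycle in an overlapping order. Ganglion cells, horizontal cells, cones and many amacrine cells form before birth, whereas most rods, bipolar cells and Müller glia form around and after birth. Factors that keep progenitors in an early state are known to give way to others that favor later fates, while the neurons already formed extend axons and begin to assemble synapses.

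Levels are given as cpm, read counts scaled to the size of the library, and a change is the difference between ages on the scale of log2(cpm + 1), which understates the change of weakly expressed genes. SE stands for the standard error of that difference. Adjusted p-values are from limma, a linear model fitted to all 27 libraries, with Benjamini-Hochberg adjustment over all 31760 features that reached 1 cpm in at least 3 libraries. Libraries held 9478433 to 9995559 reads at E14 and 9656705 to 11330762 at E17, so that 1 read was worth 0.0882 to 0.105 cpm. Libraries of one age correlated at a Pearson r of 0.989 to 0.992 across features, which are not independent replicates. E17 replicate 2 stood apart. It held 13464 cpm of Rn18s, the 18S ribosomal RNA, against 85.8 to 923 cpm in the other 5 libraries, and 92.2 cpm of Lars2, a mitochondrial leucyl-tRNA synthetase gene, against 24.6 to 31.9 cpm. The chi-square of read counts per degree of freedom was 6.78 and 6.11 in its pairs with the other E17 libraries, against 2.05 to 2.91 in the other pairs of one age. Without it the number of changed features was 1139. Xist, the RNA of the inactive X chromosome, ranged from 2.1 to 627 cpm at E14 and from 404 to 595 cpm at E17. Uty, a gene of the Y chromosome, was highest in E14 replicate 3, at 126 cpm, where Xist was lowest. It was lowest in E14 replicate 2, at 43.9 cpm, where Xist was highest, and measured 60.8 to 81.2 cpm at E17. None of the 5 sex-linked genes tested passed an adjusted p of 0.05 (limma), which does not show that the sex mix was equal. Its effect on the comparison was not tested.

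Markers of the neural retina were present at both ages. Pax6, a transcription factor gene of the eye, stood at 960.5 ± 7.92 cpm at E14 (mean ± SD, n = 3, here and in what follows) and at 964 ± 28.8 cpm at E17, and Lhx2, a gene of progenitors and glia, at 81.6 ± 3.52 and 79.4 ± 6.89 cpm. Genes of neighboring tissues were low. Of the pigment epithelium markers, Rpe65 was at most 0.422 cpm and Mlana at most 0.207 cpm in any of the 6 libraries, and the whole list summed to 55.6 to 58.3 cpm at E14 and 81.2 to 87.8 cpm at E17. Rpe65 had a mean of 0.0307 cpm at P1 and 6.55 cpm at P15, so its low level in embryos cannot show that pigment epithelium was absent. Of the 18 listed genes tested, 2 were higher (11.1%) and 1 lower (5.56%), against 8.94% and 3.73% of features with a Gene ID. Of the lens crystallins, Cryaa was at most 0.106 cpm and Crybb2 was at 0 reads, and the lens list summed to 10.4 to 12.0 cpm at E14 and 12.5 to 15.2 cpm at E17. Red blood cell genes summed to 20.1 to 26.0 cpm at E14 and 17.1 to 23.3 cpm at E17, and none of the 6 tested passed. The microglial list summed to 38.4 to 41.5 cpm at E14 and 30.9 to 33.0 cpm at E17. Ctss and Csf1r were the 2 of its 17 tested genes that passed, although neither did so with any library left out. Both passed in a fit of the 6 embryonic libraries alone (adjusted p = 0.011 and 0.0095, limma).

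From E14 to E17, 1143 of 31760 features changed, or 3.6%, meaning an adjusted p below 0.05 by limma together with a difference of 1 or more on the log2 scale in either direction. Of these, 920 were higher at E17 and 223 were lower, and for each of the 1143 the libraries of the 2 ages did not overlap. With no minimum on the fold change, 7.56% of features were higher and 3.02% lower, and among features with a Gene ID 8.94% were higher and 3.73% lower. These shares are the background for the gene groups below, and the median log2 fold change over all features was 0.03. In whole retina, fewer cells of a type and less RNA per cell cannot be told apart.

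Of the 15 features with a Gene ID that rose most, 14 are reported here, namely Gad1, Cpne4, Chrnb3, Syt6, Thy1, Inpp4b, Chrna6, Nfix, Chd5, Fabp7, Kctd12, Myh14, 4922502B01Rik and Brinp1. Many of these serve neurons: Gad1 makes the inhibitory transmitter GABA, Chrnb3 and Chrna6 are subunits of nicotinic acetylcholine receptors, and Thy1 is a surface protein of ganglion cells. Gad1 rose from 0.500, 0.211 and 0.316 cpm in the 3 libraries at E14 to 16.4, 20.1 and 18.1 cpm at E17. Every E17 library was far above every E14 library, with a log2 fold change of 3.84 (SE 0.10, adjusted p = 1.8e-22, limma). Thy1 was nearly absent at E14, with 1 read over the 3 libraries, and measured 7.87, 10.5 and 11.5 cpm at E17. Its ratio of read counts between ages, scaled to library size, was 289, with a 95% exact binomial interval of 51.5 to 11456 that covers counting error only. The unnamed gene 4922502B01Rik had no read at E14 and was at least 19.8-fold higher at E17, taking 3 reads per library as the floor.

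The 15 that fell most were Sfrp2, Sp8, Bche, Mecom, Lgr5, Eya2, D930028M14Rik, Pappa2, 2810471M01Rik, Sall4, F5, Crabp1, Slc38a4, Muc19 and Gdnf. Several are genes of early or dividing tissue, among them Sfrp2, a secreted modulator of Wnt signaling, the transcription factor genes Sp8, Mecom, Sall4 and Eya2, and Lgr5, a receptor for R-spondins. Sfrp2 measured 584, 729.9 and 729 cpm at E14 and 62.1, 63.6 and 67.6 cpm at E17. The ranges lay far apart, and the log2 fold change, -3.38 with an SE of 0.21 (adjusted p = 1.5e-13, limma), was the largest fall of any feature with a Gene ID. Sall4, known from pluripotent cells, went from 3.2, 5.17 and 3.47 cpm to 0.204, 0.176 and 0.207 cpm, or about 2 reads per library at E17. Lgr5 and Pappa2 did not stay low in later life: Lgr5 had a mean of 3.69 cpm at E17 and 2.22 cpm at P1 but 35.2 cpm at P6, and Pappa2 had 2.49 cpm at E17 and 30.4 cpm at P6. Strand was not stated for the counting, and among these largest changes Sfrp2, Mecom, Sall4, F5, Syt6, Nfix, Chd5, Kctd12 and Myh14 each overlap an exon of another annotated gene on the opposite strand, whose reads cannot be told apart from theirs. Pappa2, Muc19 and Kctd12 share exon sequence with a gene on the same strand. Of the 186 genes given with a test, 54 have such an overlap on the opposite strand and 23 on the same strand.

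**Figure D1:**
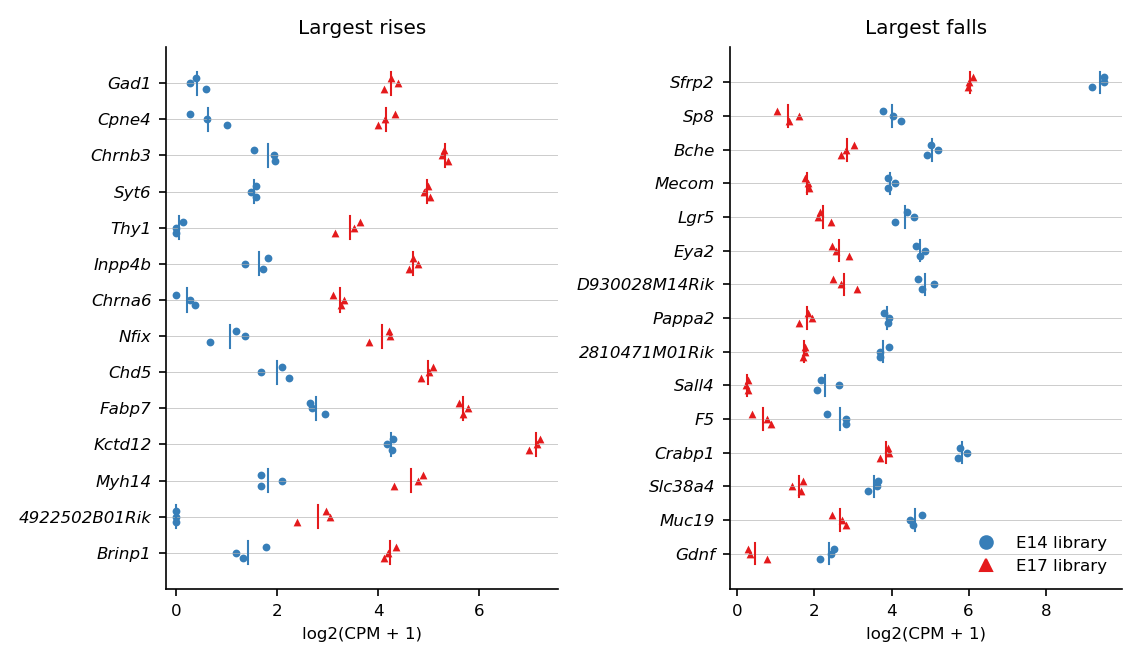
Levels of 14 of the 15 genes with the largest rise (left) and the 15 with the largest fall (right) in each library, as log2(cpm + 1), with E14 libraries as blue circles, E17 libraries as red triangles and group means as vertical bars. For every gene all 3 E17 libraries lie on one side of all 3 E14 libraries, with Gad1 at 16.4 to 20.1 cpm and Sfrp2 at 62.1 to 67.6 cpm at E17.

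Genes of developmental timing changed in both directions. Of the 22 tested, 4 rose and 10 fell at an adjusted p under 0.05, with a median log2 fold change of -0.54. The 4 that rose were Nfix, Sox8, Nfia and Nfib, and 3 of them encode nuclear factor I proteins, which are known to favor late fates in progenitors. Nfia measured 13.2, 12.1 and 17.4 cpm at E14 and 51.5, 55.7 and 51.2 cpm at E17, a rise of 1.83 (SE 0.11, adjusted p = 3.2e-14, limma). Nfib rose from 39.5 ± 4.20 to 116 ± 5.27 cpm (SD, n = 3) and Nfix from 1.15 ± 0.501 to 16.1 ± 2.65 cpm. The fourth member of the family, Nfic, measured 20.1 ± 1.21 cpm at E14 and 25.7 ± 3.64 cpm at E17 (adjusted p = 0.06, limma), and passed in none of the 6 fits that left out 1 library.

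The 10 that fell were Foxp1, Lin28b, Pou2f2, Onecut2, Igf2bp1, Lin28a, Trim71, Onecut1, Igf2bp3 and Igf2bp2. Lin28b and Lin28a encode RNA-binding proteins that block maturation of let-7 microRNAs, and the Igf2bp genes encode messenger RNA-binding proteins of embryonic cells. Lin28b fell from 40.5, 44.5 and 44.1 cpm to 17.9, 17.4 and 19.9 cpm (log2 fold change -1.19, SE 0.22, adjusted p = 2.2e-04, limma). Foxp1, a forkhead factor gene tied to early progenitor competence, went from 246 ± 4.42 to 98.4 ± 5.21 cpm, and Igf2bp1 from 296 ± 15.4 to 143 ± 8.43 cpm. Onecut2, whose product acts in early-born ganglion and horizontal cells and cones, measured 549 ± 14.7 cpm at E14 and 254 ± 12.8 cpm at E17. In all 10 genes the E14 and E17 libraries were apart, although Trim71 and Igf2bp2 lost their call in 1 and 2 of the 6 fits that left out 1 library, and Lin28a lost it in 4 of them and rested on a mean of 3.01 cpm at E14. Ikzf1 and Casz1, timing genes that act early and later in progenitors, measured 1.92 and 171 cpm at E14 and 0.618 and 211 cpm at E17, and neither passed (adjusted p = 0.082 and 0.053, limma), although Casz1 did in a fit of the 6 embryonic libraries alone (adjusted p = 0.0048, limma).

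Among host transcripts of microRNAs with roles in neurons, chosen after their values were seen, Mir9-3hg rose most. It measured 1.0, 1.79 and 0.842 cpm at E14 and 9.81, 11.0 and 9.73 cpm at E17 (log2 fold change 2.36, SE 0.20, adjusted p = 2.1e-10, limma). The transcript lies on chromosome 7 from 79500026 to 79534403 (GRCm38) and holds the miR-9 hairpin, which yields a mature RNA from each arm. Both are shown to identify which microRNA the transcript carries, with seed bases 2 to 8 in capitals and sequences from RefSeq (GRCm38.p6). The mature forms themselves were not measured here.
miR-9-5p: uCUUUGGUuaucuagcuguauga
miR-9-3p: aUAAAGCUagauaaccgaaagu
The arms lie at chr7:79505279-79505301 and chr7:79505318-79505339 on the plus strand and have different seeds, and RefSeq places the miR-9b forms on the opposite strand of the same hairpin. Mir124a-1hg, the host of a copy of the neuronal microRNA miR-124, also rose, from 156 ± 22.7 to 382 ± 44.4 cpm (log2 fold change 1.29, adjusted p = 2.1e-11, limma), and Mir124-2hg rose by 0.43 (adjusted p = 4.6e-04, limma).

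Among the genes that drive neurogenesis, 8 of 20 rose and 2 fell. In a fit of the 6 embryonic libraries alone the numbers were 11 and 5. That fit had 13.4% of features with a Gene ID higher and 10.5% lower, the background for its counts here and below. Atoh7, which progenitors need to make ganglion cells, fell from 197, 205 and 190.2 cpm to 58.1, 58.4 and 55.5 cpm. Every E17 library was below every E14 library, with a log2 fold change of -1.77 (SE 0.26, adjusted p = 7.7e-06, limma). Neurod1 and Neurod4, basic helix-loop-helix genes of photoreceptors and interneurons, each had means near 100 cpm at E14, at 98.7 ± 2.12 and 102 ± 2.92 cpm, and rose to 216 ± 9.34 and 197 ± 9.75 cpm. Neurod2 had no read at E14 and was at least 5.18-fold higher at E17. Neurog2, which is active in progenitors about to divide for the last time, measured 97.0 ± 3.31 and 111 ± 3.46 cpm (adjusted p = 0.77, limma), and Foxn4, a gene of amacrine and horizontal cell production, 134 ± 5.89 and 105 ± 6.89 cpm (adjusted p = 0.24, limma). Both passed in the fit of the 6 libraries, Neurog2 as higher and Foxn4 as lower at E17 (adjusted p = 0.022 and 0.0039, limma).

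Of 26 progenitor genes 8 fell and 2 rose, and the median log2 fold change was -0.18. The number that fell was 4 to 6 when 1 library was left out and 12 in the fit of the 6 libraries alone. Beside Sfrp2, the genes that fell included its relative Sfrp1, at 73.8 ± 2.38 and 36.6 ± 2.22 cpm, and Fgf15, a growth factor gene of progenitors. Fgf15 measured 612 ± 36.1 and 349.6 ± 23.1 cpm (log2 fold change -0.81, adjusted p = 0.026, limma). It did not pass in any fit that left out 1 library. In the fit of the 6 libraries alone it passed (adjusted p = 6.4e-05, limma), as it did by edgeR (adjusted p = 3.0e-04). Heyl, a Notch target gene, went the other way, from 16.7, 17.2 and 16.8 cpm to 57.1, 62.9 and 62.6 cpm (log2 fold change 1.79, SE 0.23, adjusted p = 5.8e-07, limma). The Notch targets Hes1 and Hes5 did not pass, with Hes1 at 50.7 ± 1.90 and 49.7 ± 1.49 cpm and Hes5 at 35.1 ± 3.35 and 41.9 ± 1.37 cpm (adjusted p = 0.97 and 0.55, limma). Ccnd1, the main D-type cyclin gene of the retina, measured 1441, 1434 and 1438 cpm at E14 and 1414, 1449 and 1505 cpm at E17.

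Genes of cell division gave a different count in different fits. In the fit of 27 libraries, Rrm2 and Rrm1, which encode the 2 subunits of ribonucleotide reductase, were the only ones of 37 to pass, Rrm1 not in 3 of the 6 fits that left out 1 library, and the list's median was -0.22. Rrm2 fell from 73.9, 84.8 and 83.9 cpm to 49.4, 43.2 and 49.5 cpm (log2 fold change -0.76, SE 0.19, adjusted p = 0.0051, limma). In the fit of the 6 libraries alone, 16 of the 37 were lower and 1, E2f1, was higher, against 10.5% and 13.4% of features with a Gene ID. The changes that passed there were small, for instance -0.45 for Pcna (59.0 to 42.8 cpm on average), -0.34 for the helicase subunit gene Mcm2 (145 to 114 cpm) and -0.16 for Top2a (814 to 728 cpm). Libraries of Top2a did not overlap between ages, but its adjusted p was 0.77 with 27 libraries against 0.014 with 6 (limma). The spread of the larger fit includes libraries in which Top2a was nearly absent, with a mean of 0.454 cpm at P15. Mki67, the standard marker of cycling cells, measured 2108, 2138 and 2222 cpm at E14 and 2141, 2327 and 2420 cpm at E17. Its libraries overlapped between ages, and it did not pass in either fit.

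**Figure D2:**
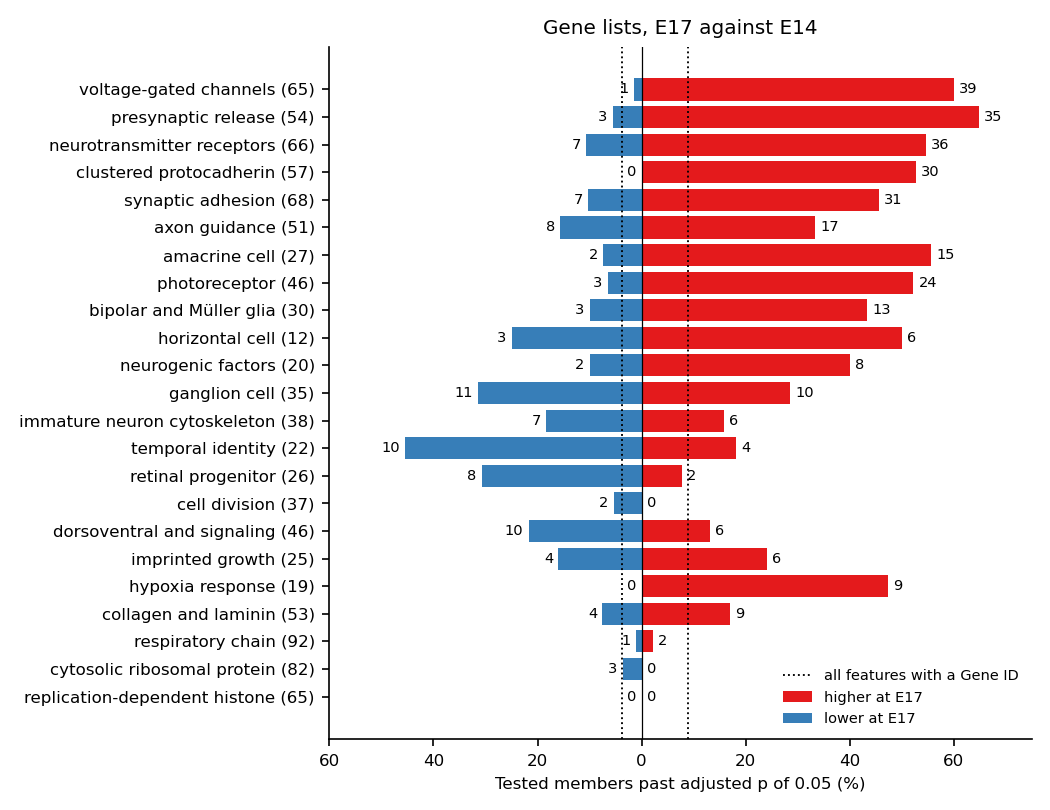
Share of the tested members of each gene list that were higher (red, to the right) or lower (blue, to the left) at E17 at an adjusted p under 0.05, in percent, with the number of tested members in brackets and the number called beside each bar. Dotted lines mark the same shares over all features with a Gene ID, 8.94% higher and 3.73% lower, and the lists of transmitter release and of voltage-gated channels reach furthest to the right while the timing list reaches furthest to the left.

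Amacrine genes, which belong to the inhibitory interneurons of the inner retina, mostly rose. Of 27 tested, 15 rose and 2 fell, with a median log2 fold change of 0.77. Beside Gad1, Calb2, a calcium-binding protein gene of many amacrine cells, rose from 6.90, 8.97 and 8.74 cpm to 28.2, 32.6 and 34.0 cpm (log2 fold change 1.83, SE 0.12, adjusted p = 1.8e-13, limma). The transcription factor genes Tfap2a and Tfap2b, which are needed for amacrine and horizontal cells, measured 13.4 ± 1.36 and 76.8 ± 9.04 cpm at E14 and 89.9 ± 7.39 and 388 ± 26.7 cpm at E17. Megf10, which helps to space starburst amacrine and horizontal cells, rose from 13.4 ± 1.08 to 51.9 ± 4.89 cpm. The steps were smaller for Meis2, from 79.2 ± 3.2 to 253 ± 14.9 cpm, and for Gad2, the other gene for GABA synthesis, from 53.1 ± 3.44 to 98.3 ± 3.64 cpm.

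Transcripts that mark transmitter type within amacrine cells appeared at low levels. Chat, the enzyme that makes acetylcholine in starburst cells, had no read at E14 and 1.53, 2.21 and 1.76 cpm at E17, at least 5.90-fold higher. Slc18a3, which loads acetylcholine into vesicles and lies within the Chat locus, had 3 reads over the E14 libraries and a read count ratio of 8.48 (95% exact binomial interval 2.61 to 43.7). Slc32a1, which loads GABA and glycine into vesicles, rose from 1.90 ± 0.178 to 8.62 ± 1.36 cpm (log2 fold change 1.72, adjusted p = 2.5e-09, limma). The 2 that fell were Lmo3, from 4.4 ± 0.779 to 1.66 ± 0.355 cpm, and Sox2, from 183 ± 7.38 to 142 ± 11.4 cpm. Sox2, a gene of progenitors as well as of some amacrine cells, lost its call in 5 of the 6 fits without 1 library. It passed in the fit of the 6 libraries alone (adjusted p = 0.0047, limma).

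Of the 12 horizontal cell genes, 6 rose and 3 fell. The 3 that fell were Onecut2, Onecut1 and Onecut3, the last of which lost its call in 2 of the 6 fits without 1 library. Among those that rose were Tfap2a and Tfap2b, also counted with the amacrine genes, and Ndrg1, also counted with the genes of low oxygen. Onecut1 and Onecut2 were counted with the timing genes as well. Prox1, which horizontal cells share with other interneurons, rose from 95 ± 2.69 to 147 ± 3.84 cpm (log2 fold change 0.63, adjusted p = 2.8e-07, limma). Lhx1, a gene more particular to horizontal cells, measured 2.50, 0.949 and 1.26 cpm at E14 and 3.68, 3.53 and 4.35 cpm at E17. The ranges did not overlap, but the adjusted p was 0.064 by limma, against 0.02 in the fit of the 6 libraries alone.

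Photoreceptor genes rose in 24 of 46 cases and fell in 3, with a median log2 fold change of 0.46. Under a minimum mean of 10 cpm, which leaves fewer members tested, 11 rose. Among the transcription factor genes, Crx, which switches on photoreceptor genes in rods and cones, rose from 79.7, 78.6 and 82.3 cpm to 179, 171 and 174 cpm (log2 fold change 1.11, SE 0.07, adjusted p = 7.2e-14, limma). Otx2, which acts upstream of Crx, went from 100.5 ± 1.35 to 208 ± 16.7 cpm, and Prdm1, which holds cells to the photoreceptor rather than the bipolar fate, from 114 ± 9.97 to 211 ± 7.13 cpm. The rod genes Nrl and Nr2e3 were low at both ages but rose, Nrl from 0.964 ± 0.197 to 4.47 ± 0.693 cpm and Nr2e3 from 0.825 ± 0.152 to 4.11 ± 1.51 cpm. Rorb, a nuclear receptor gene needed for rods, was far more abundant, at 2568 ± 35.7 and 2957 ± 103 cpm, and did not pass (adjusted p = 0.33, limma), but did in the fit of the 6 libraries alone (adjusted p = 0.01, limma). Rxrg, a receptor gene of cones, measured 14.9 ± 3.36 and 18.4 ± 1.41 cpm (adjusted p = 0.61, limma).

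Of the phototransduction genes, those of cones were the ones that rose most. Gnat2 and Gnb3, which encode the alpha and beta subunits of cone transducin, went from 1.30, 0.949 and 1.79 cpm to 12.4, 12.3 and 11.1 cpm and from 4.0, 3.27 and 4.21 cpm to 30.0, 32.3 and 28.5 cpm. Log2 fold changes were 2.48 for Gnat2 and 2.7 for Gnb3 (adjusted p = 8.7e-14 and 4.0e-10, limma). Cnga3, a cone channel subunit, rose by 2.28 to 13.0 ± 1.98 cpm and Opn1sw, the short-wavelength cone opsin, by 1.85 to 10.5 ± 2.74 cpm, although Opn1sw overlaps an exon of Calu on the opposite strand. Structural genes rose too, with Rp1, whose product organizes the outer segment axoneme, at 3.88 ± 0.520 and 30.1 ± 1.34 cpm and Tulp1, which acts in protein transport, at 4.95 ± 1.41 and 32.1 ± 4.23 cpm. Rbp3, an abundant photoreceptor gene that stood outside the list and was chosen after its values were seen, rose from 22.3 ± 1.98 to 141 ± 9.55 cpm.

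Among the photoreceptor genes that fell were Sag and Abca4, which act in mature rods and cones. They measured 6.28 ± 0.948 and 3.38 ± 0.0910 cpm at E14 and 4.86 ± 1.22 and 2.36 ± 0.791 cpm at E17. They lost their call in 4 and 3 of the 6 fits without 1 library, neither passed in the fit of the 6 libraries alone, and the libraries of Sag overlapped between ages.

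Promoters of the photoreceptor genes that rose were searched for the letters TAATCC on either strand (GGATTA on the other), the core sequence that the Crx protein is known to bind. Of the 24 genes, 19 matched the RefSeq promoter table (GRCm38.p6), with 24 windows reaching from 250 bases before to 50 bases after a start site. The letters were in 7 of these windows (29.2%), against 7.06% of all 32851 windows and 7.11% of the windows of other genes that rose. Windows of one gene can overlap, and a match does not show a bound site. The windows of Crx itself and of Gnat2 are shown because they hold the letters nearest upstream of a start, with the match in capitals.
Gnat2 promoter, chr3:108092816-108093115, plus strand: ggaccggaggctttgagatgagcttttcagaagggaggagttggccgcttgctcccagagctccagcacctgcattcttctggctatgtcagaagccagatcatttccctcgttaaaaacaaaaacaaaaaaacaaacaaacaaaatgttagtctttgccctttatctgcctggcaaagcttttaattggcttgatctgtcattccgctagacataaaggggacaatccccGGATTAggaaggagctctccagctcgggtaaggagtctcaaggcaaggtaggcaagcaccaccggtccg
Crx promoter, chr7:15879906-15880205, minus strand: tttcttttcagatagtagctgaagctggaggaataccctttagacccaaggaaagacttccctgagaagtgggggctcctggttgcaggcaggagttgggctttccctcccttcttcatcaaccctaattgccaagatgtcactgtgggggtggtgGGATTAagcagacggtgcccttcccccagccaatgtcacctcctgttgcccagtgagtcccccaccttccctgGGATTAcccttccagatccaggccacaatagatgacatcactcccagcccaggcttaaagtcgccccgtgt
The letters begin 19 bases before the start site of Gnat2, and the Crx window holds them in 2 places, the nearer of them 21 bases before the start.

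Ganglion cell genes divided almost evenly, with 10 of 35 higher, 11 lower and a median log2 fold change of -0.06. Genes that act early in these cells were among those that fell. Pou4f2, the factor that sets ganglion cell identity downstream of Atoh7, fell from 111, 116 and 101 cpm to 40.5, 35.5 and 37.1 cpm (log2 fold change -1.51, SE 0.19, adjusted p = 3.4e-07, limma). Isl1, its partner, fell from 317 ± 9.03 to 177 ± 14.8 cpm, Ebf3 from 536 ± 6.59 to 226 ± 3.17 cpm, and Dlx1 and Dlx2, neighboring homeobox genes on chromosome 2, from 55.6 ± 6.74 to 14.9 ± 0.165 cpm and from 16.3 ± 1.0 to 4.93 ± 1.01 cpm. Pou4f1 and Isl2, homeobox genes of ganglion cell subsets, went up, Pou4f1 from 115, 117 and 128 cpm to 208, 207 and 235 cpm (log2 fold change 0.85, SE 0.12, adjusted p = 2.2e-06, limma) and Isl2 from 3.70, 5.17 and 6.53 cpm to 19.1, 22.1 and 23.7 cpm (log2 fold change 1.91, SE 0.20, adjusted p = 1.0e-08, limma).

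Neurofilament genes, which support axons, differed in direction. Nefm, the medium neurofilament chain, went from 549 ± 8.46 to 318 ± 24.4 cpm and Nefl, the light chain, from 362 ± 32.6 to 254 ± 10.3 cpm, although in the GENCODE annotation an exon of a longer Nefm transcript overlaps Nefl on the opposite strand. Nefh, the heavy chain of mature axons, rose from 1.38 ± 0.387 to 3.10 ± 0.829 cpm, a call that was lost in 1 of the 6 fits without 1 library. Gap43, a growth cone protein gene, measured 178 ± 6.42 and 131 ± 2.83 cpm and did not pass (adjusted p = 0.11, limma), but was lower in the fit of the 6 libraries alone (adjusted p = 2.4e-04, limma) and by edgeR (adjusted p = 0.023). In the wider list of immature neuron genes, 6 of 38 rose and 7 fell, against 13 and 16 in the fit of the 6 libraries alone. Those that fell included Elavl4, an RNA-binding protein of young neurons, from 448 ± 32.6 to 179 ± 16.1 cpm, and Tubb3, the neuronal beta-tubulin, from 661 ± 13.5 to 385 ± 30.4 cpm. Rbfox1, a splicing regulator of maturing neurons, rose from 83.0 ± 8.42 to 145 ± 12.4 cpm.

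**Figure D3:**
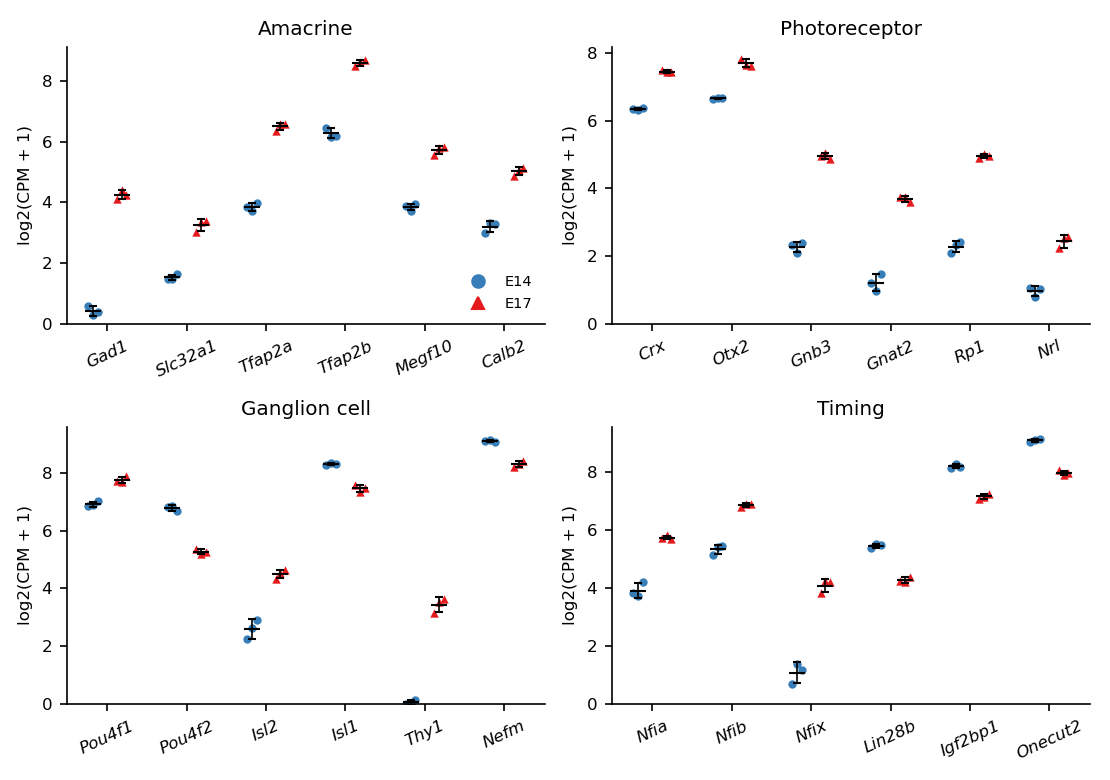
Levels of 6 genes each of amacrine cells, photoreceptors, ganglion cells and developmental timing, as log2(cpm + 1), in the 3 E14 libraries (blue circles) and the 3 E17 libraries (red triangles), with black bars for the mean and SD of the log values. All 6 amacrine and all 6 photoreceptor genes shown were higher at E17, Pou4f1, Isl2 and Thy1 were higher while Pou4f2, Isl1 and Nefm were lower, and the nuclear factor I genes rose while Lin28b, Igf2bp1 and Onecut2 fell.

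Genes listed for bipolar cells and Müller glia, which form mainly after birth, rose in 13 of 30 cases and fell in 3. Many are shared with other cells at this stage. Crym, a thyroid hormone-binding protein gene, rose from 5.10, 2.95 and 4.63 cpm to 26.6, 27 and 31.6 cpm (log2 fold change 2.51, SE 0.18, adjusted p = 1.4e-12, limma), and Car2, a carbonic anhydrase gene, from 5.79 ± 1.18 to 34.1 ± 2.48 cpm. The potassium channel gene Kcnj10 and the retinoid carrier gene Rlbp1, both of mature Müller glia, reached 11.8 ± 1.56 and 5.74 ± 0.815 cpm from 1.87 ± 0.154 and 1.49 ± 0.255 cpm. Cabp5, a calcium-binding protein gene of bipolar cells, went from 0.350 ± 0.268 to 3.29 ± 0.565 cpm. Vim, an intermediate filament gene of progenitors and glia, fell from 532, 533 and 537 cpm to 241, 229.6 and 251 cpm (log2 fold change -1.15, SE 0.11, adjusted p = 4.3e-09, limma).

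Genes of synapses and excitability rose in large number. Of 54 genes of transmitter release, 35 rose and 3 fell, with a median log2 fold change of 0.65. Snap25, a core protein of vesicle fusion, measured 154, 148 and 139.7 cpm at E14 and 284, 277 and 266 cpm at E17 (log2 fold change 0.90, SE 0.07, adjusted p = 5.4e-11, limma), and Syt1, the calcium sensor of fast release, 166 ± 7.83 and 277 ± 9.53 cpm. The related gene Syt6 had the largest rise of the list, from 1.93 ± 0.119 to 30.6 ± 1.14 cpm, whereas Syt13 fell from 61.6 ± 5.76 to 33.3 ± 1.49 cpm. Syp and Vamp2, which encode proteins of the vesicle membrane, rose from 35.0 ± 1.86 to 64.2 ± 3.54 cpm and from 47.3 ± 1.59 to 66.2 ± 2.10 cpm.

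Neurotransmitter receptor and postsynaptic genes rose in 36 of 66 cases and fell in 7, with a median of 0.62. Under a minimum mean of 10 cpm, which leaves fewer members tested, 20 rose. Grin2b, an NMDA receptor subunit of immature synapses, rose from 7.30, 4.01 and 6.21 cpm to 41, 47.0 and 47.7 cpm (log2 fold change 2.79, SE 0.15, adjusted p = 3.1e-15, limma), while Grin1, the subunit that all NMDA receptors need, reached 9.96 ± 1.67 cpm from 3.82 ± 0.506 cpm. Dlg2, a scaffold gene, rose from 35.9 ± 3.29 to 179 ± 2.17 cpm, Grik3, a kainate receptor subunit, from 9.35 ± 0.382 to 46.9 ± 5.21 cpm, and Gabra2, a GABA receptor subunit, from 6.43 ± 0.816 to 27.2 ± 1.10 cpm. The nicotinic acetylcholine receptor genes, whose products carry spontaneous waves of activity before eye opening, differed in direction. Chrnb3 rose from 2.90, 2.85 and 1.90 cpm to 40.9, 37.5 and 38.5 cpm and its neighbor on chromosome 8, Chrna6, from 0.170 ± 0.154 to 8.48 ± 0.736 cpm. Chrna3 and Chrna5, neighbors on chromosome 9, fell, Chrna3 from 154, 156 and 140.1 cpm to 84.0, 80.0 and 73.6 cpm (log2 fold change -0.91, SE 0.21, adjusted p = 0.0023, limma) and Chrna5 from 9.87 ± 0.507 to 3.77 ± 1.02 cpm. Grm2 and Grin2c, a metabotropic and an NMDA glutamate receptor gene, fell, with log2 fold changes of -1.89 and -1.47.

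Voltage-gated channel genes rose in 39 of 65 cases and fell in 1, with a median of 0.66. The one that fell, the potassium channel gene Kcnh2, measured 24.4 ± 0.530 and 17.1 ± 1.86 cpm and lost its call in 4 of the 6 fits without 1 library. Kcnip1, an auxiliary subunit of A-type potassium channels, rose most, from 1.40, 1.79 and 2.32 cpm to 14.2, 16.3 and 15.9 cpm (log2 fold change 2.55, SE 0.16, adjusted p = 1.7e-13, limma). Kcnip3, a related gene, went from 2.62 ± 0.393 to 17.9 ± 2.56 cpm, and Cacna1g, a low-voltage calcium channel gene, from 10.3 ± 2.34 to 34.9 ± 1.09 cpm.

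Axon guidance genes rose in 17 of 51 cases and fell in 8. Those that rose included Sema3e, a secreted semaphorin, from 7.5, 7.49 and 8.74 cpm to 38.0, 39.3 and 41.1 cpm (log2 fold change 2.19, SE 0.12, adjusted p = 7.2e-15, limma), Epha8, an ephrin receptor, from 14.0 ± 1.32 to 65.8 ± 4.43 cpm, and Plxna2, a semaphorin receptor, from 40.2 ± 2.83 to 136 ± 6.99 cpm. A netrin ligand gene and its main receptor gene fell. Ntn1, which guides ganglion cell axons out of the eye, went from 6.52 ± 0.941 to 2.13 ± 0.663 cpm, and Dcc from 436, 481 and 439 cpm to 244, 217 and 244 cpm (log2 fold change -0.94, SE 0.10, adjusted p = 5.4e-09, limma). Cntn2, an adhesion molecule of growing axons, fell from 203 ± 5.10 to 89.3 ± 6.65 cpm. In the fit of the 6 libraries alone 23 rose and 15 fell, against 13.4% and 10.5% of features with a Gene ID.

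Of 68 genes of synaptic and laminar adhesion, 31 rose and 7 fell. Ptprt, a receptor phosphatase, rose from 9.72 ± 0.954 to 41 ± 6.07 cpm and Lrrtm3, a postsynaptic adhesion gene, from 0.450 ± 0.164 to 4.18 ± 0.519 cpm. Tenm3, a teneurin that matches synaptic partners, fell from 705, 698 and 753 cpm to 404, 387 and 432 cpm (log2 fold change -0.82, SE 0.06, adjusted p = 2.6e-11, limma), and Cdh9 and Sdk1, which mark synaptic layers in the adult retina, fell from 8.35 ± 0.0462 to 2.92 ± 0.518 cpm and from 59.1 ± 4.46 to 29.2 ± 2.01 cpm.

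The clustered protocadherins, which give single neurons their own surface identity, rose in 30 of 57 cases and fell in none. In the beta cluster 16 of 21 rose, with a median log2 fold change of 0.90 and a range of 0.31 to 1.33. Pcdhb14 measured 4.90, 4.96 and 5.05 cpm at E14 and 14.7, 14.4 and 13.1 cpm at E17 (log2 fold change 1.33, SE 0.15, adjusted p = 5.5e-08, limma). All 14 alpha entries rose, by 0.85 to 0.98, and none of 22 gamma entries passed, with changes of 0.06 to 0.15. Alpha and gamma entries each include constant exons shared by their cluster, and their means lay close together, at 25.1 to 33.3 cpm for alpha and 82.2 to 122.5 cpm for gamma at E14, so that entries of these clusters are not separate measurements. The difference between clusters was not tested.

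Among genes that pattern the retina and carry its signals, 6 of 46 rose and 10 fell. Rspo2, a secreted enhancer of Wnt signaling, rose from 0.10, 0.211 and 0.631 cpm to 6.64, 9.18 and 7.35 cpm (log2 fold change 2.74, SE 0.27, adjusted p = 3.2e-09, limma), and Axin2, a common target of that pathway, from 6.00, 6.12 and 6.95 cpm to 14.6, 14.2 and 14.2 cpm (log2 fold change 1.06, SE 0.14, adjusted p = 8.7e-07, limma). With Sfrp2 and Sfrp1 lower, these are 4 Wnt-related genes with changes in both directions. Tbx5, which marks the dorsal retina, fell from 20.9 ± 3.89 to 7.4 ± 1.41 cpm, and Fgf3 and Fgfr3, a fibroblast growth factor and a receptor, from 30.2 ± 1.56 to 15.5 ± 1.43 cpm and from 4.41 ± 1.94 to 1.32 ± 0.263 cpm. Aldh1a1, which makes retinoic acid dorsally, measured 110.5, 77.6 and 71.3 cpm at E14 and 59.4, 57.6 and 57.6 cpm at E17, with the first E14 library above the rest, and its call was lost without that library.

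Imprinted genes, which are expressed from 1 parental copy, rose in 6 of 25 cases and fell in 4. Meg3, Rian and Mirg are maternally expressed transcripts of a locus on chromosome 12. Meg3 rose from 244, 209 and 259 cpm to 955, 942 and 994 cpm (log2 fold change 2.02, SE 0.14, adjusted p = 8.1e-13, limma). Rian rose from 71.2 ± 2.48 to 181 ± 7.38 cpm and Mirg from 1.74 ± 1.06 to 4.25 ± 0.658 cpm. Mirg lost its call in a fit of the 6 libraries that took replicate number into account. Rtl1, a paternally expressed gene of the same locus, rose from 4.77 ± 1.53 to 12.9 ± 2.22 cpm. Its RefSeq span overlaps those of Meg3 and Rian and holds 15 microRNA hairpins of the locus, some of them on the opposite strand. Reads were not known to be counted by strand, so that reads of these transcripts may be among those of Rtl1. Dio3, a paternally expressed gene further along the locus that inactivates thyroid hormone, was chosen after its values were seen and fell by 1.51 on the log2 scale, a call that was lost with a pseudocount of 0.1. The 4 of the list that fell were Grb10, an inhibitor of growth signaling, from 1003 ± 28 to 529.9 ± 18.3 cpm, Mest, Peg10 and Zdbf2, and the number was 10 in the fit of the 6 libraries alone. Igf2 and H19 did not pass (adjusted p = 0.2 and 0.57, limma). In the fit of the 6 libraries Igf2 was lower and H19 higher at E17 (adjusted p = 0.015 and 3.3e-04, limma).

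Genes known to respond to low oxygen rose in 9 of 19 cases and fell in none, with a median of 0.33. The number was 5 with median-of-ratios scaling and 5 to 8 with 1 library left out, so that part of the count depended on how libraries were scaled. Ndrg1 and Bnip3, a stress response gene and a mitochondrial autophagy gene, rose most, from 72.0 ± 7.09 to 167 ± 10.5 cpm and from 13.0 ± 1.43 to 27.9 ± 3.11 cpm. Vegfa, the growth factor that draws vessels into the retina, measured 124, 122 and 164 cpm at E14 and 231, 248 and 274 cpm at E17 (log2 fold change 0.88, SE 0.20, adjusted p = 0.0022, limma). Of 26 vessel genes 2 were higher (7.69%), namely Pdgfrb and Kdr, near the share of 8.94% over features with a Gene ID, and none was lower. The vessel list summed to 3274 to 3520 cpm at E14 and 4042 to 4430 cpm at E17. Kdr, a Vegfa receptor that retinal neurons also express, was abundant and rose from 167 ± 7.08 to 314 ± 12.5 cpm, while the endothelial markers Cdh5 and Pecam1 were at most 0.265 and 1.5 cpm in any of the 6 embryonic libraries. Kdr, Cdh5 and Pecam1 thus made up a small part of the list's sum, most of which came from members not named here. What part vessel cells had in that sum was not tested.

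None of 65 replication-dependent histone genes passed in the fit of 27 libraries by limma. Past an unadjusted p of 0.05 were 5, a count for which no share over all features is given here. By edgeR, a count model run on reads recovered from the cpm values, 1 was lower, and in the limma fit of the 6 libraries alone 6 were higher and 6 lower. Over all features with a Gene ID that limma fit gave 13.4% higher and 10.5% lower, the background for its counts in this paragraph. Of 92 nuclear genes of the respiratory chain 2 rose, Ndufa4l2 and Cox4i2, and 1 fell. Ndufa4l2, which is known to be induced by low oxygen, went from 7.4, 10.7 and 12.2 cpm to 40.6, 43.0 and 44.9 cpm (log2 fold change 2.01, SE 0.23, adjusted p = 9.3e-08, limma), although it overlaps Shmt2 on the opposite strand. Of 82 ribosomal protein genes 3 fell, with a list median of -0.14, and in the fit of the 6 libraries alone 27 were lower and none higher. Rps2 fell most, from 138 ± 20 to 69.9 ± 5.72 cpm. Of 53 collagen and laminin genes 9 rose and 4 fell, against 14 and 8 in the fit of the 6 libraries alone, led by Col9a3, from 0.795 ± 0.0824 to 6.09 ± 0.258 cpm.

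Markers of glia that enter along the optic nerve moved in both directions, with 2 of 11 higher and 2 lower and a summed level of 147 to 162 cpm at E14 and 241 to 246 cpm at E17. Pdgfra, a receptor of astrocyte precursors, rose from 2.38 ± 0.129 to 7.35 ± 1.03 cpm, and Slc1a2, a glutamate transporter that neurons and photoreceptors express as well, from 115 ± 6.42 to 214 ± 4.37 cpm. Slc1a2 alone made up most of the summed level at both ages, so that the rise of the sum does not show a rise of glial markers as a group. Pax2, which marks the optic stalk and early astrocytes, fell from 4.74 ± 0.941 to 1.74 ± 0.317 cpm and Gja1, a gap junction gene, from 17.2 ± 1.10 to 4.64 ± 1.75 cpm. Gfap, the usual marker of mature astrocytes, was at 0, 0.317 and 0 cpm at E14 and 1.53, 1.76 and 0.414 cpm at E17 and did not pass (adjusted p = 0.064, limma), but did in the fit of the 6 libraries alone (adjusted p = 0.028, limma) and by edgeR (adjusted p = 0.016). What part other tissues had in any result was not tested.

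Most rises seen at E17 were followed by a higher mean at P1, as described by group means that carry no test. These means share the E14 and E17 libraries with the comparison. Features that rose were chosen for a low E14 mean and those that fell for a high one. Counts set against E14 are therefore partly fixed by that choice, and no share over all features is given beside them. Of the 920 features that rose, 675 had a higher mean at P1 than at E17, 919 were above their E14 mean at P1 and 797 at P60, and 95 had their highest mean at E17. The photoreceptor gene Rp1 went from a mean of 30.1 cpm at E17 to 215 cpm at P1 and 3709 cpm at P60, and Snap25 from 275 to 955 cpm at P60. Fabp7 and Sox8, in contrast, had means of 50.6 and 144 cpm at E17, 95.7 and 181 cpm at P1, and 1.05 and 18.8 cpm at P60. Of the 223 features that fell, 195 had their highest mean at E14 and 202 were still below their E14 mean at P60.

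**Figure D4:**
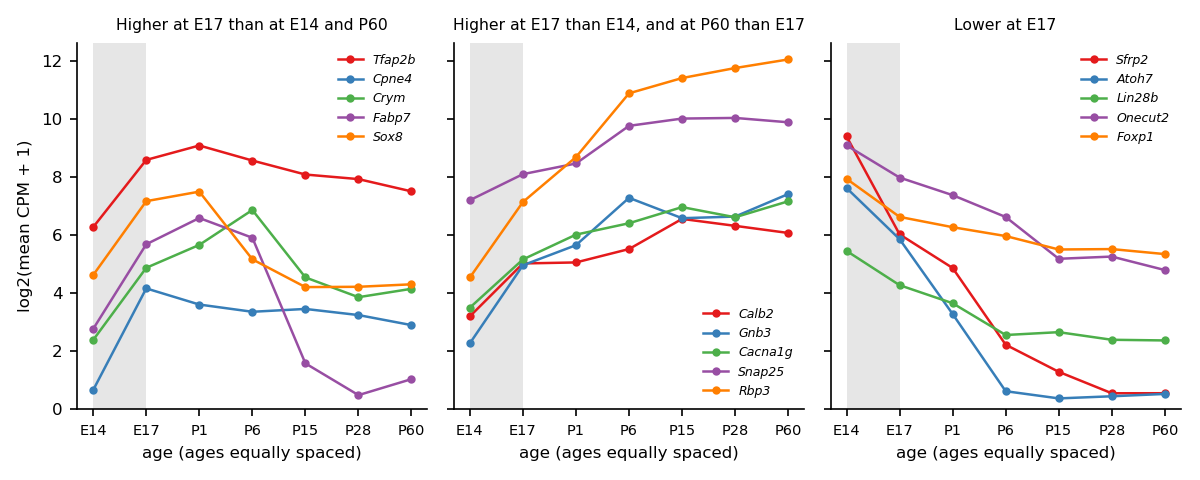
Mean level of chosen genes at each of the 7 ages, as log2(mean cpm + 1), with the step from E14 to E17 shaded and ages equally spaced rather than to scale. Tfap2b, Cpne4, Crym, Fabp7 and Sox8 (left) were lower at P60 than at E17, Calb2, Gnb3, Cacna1g, Snap25 and Rbp3 (middle) were higher at P60 than at E17, and Sfrp2, Atoh7, Lin28b, Onecut2 and Foxp1 (right) had their highest mean at E14.

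Sizes of the features are given as a description with no test. Among those with a Gene ID that matched RefSeq, the median annotated span was 47.8 kb for the genes that rose, 26.6 kb for those that fell and 22.0 kb for those not called. Median transcript length was 4181, 3946 and 3204 nt, and median GC content 49.3%, 50.4% and 49.35%. Between 87.0% and 93.2% of each class could be matched. Of the 1143 changed features, 378 had no Gene ID, of which 302 were higher and 76 lower.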

How the data were processed

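The deposited table gave CPM (read counts scaled to library size) for 38168 features of 27 retinal RNA-seq libraries, and the authors aligned reads with STAR to mm10 per the labels and their methods. Strand of counting and the annotation release were not given in the sources used here. Values of each library summed to 999814 to 999882, and 100% of nonzero values were whole reads within 0.05 reads, so that reads were recovered from the CPM values. These were used for depth, for intervals (counting error only) and for edgeR.

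A feature entered the fit when 3 or more libraries reached 1 CPM. limma 3.58.1 (R 4.3.3) was fitted to log2(CPM + 1) of all 27 libraries with age as a factor, E17 was compared with E14, and p-values were adjusted by the Benjamini-Hochberg method. Features counted as changed had an adjusted p below 0.05 and differed by 1 or more on the log2 scale, whereas for named genes and members of lists the p alone decided. Data were simulated for the comparison of E17 with E14 over 31760 features, with 200 of them changed by 1.5 on the log2 scale. In these data limma recovered 198 of the 200 with 0 false calls, and edgeR 4.0.16 recovered 200 with 4 false calls. The changed features were drawn only from those above a minimum level at E14, and all features had the same fixed dispersion. The recovery therefore does not apply to genes nearly absent at E14, such as Gad1, Thy1 and Chat. The rate of false calls in the measured libraries, E17 replicate 2 among them, was not tested.

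Groups came from the age labels. The gene lists and the members named were chosen with earlier results of these data known. Genes named were the 15 largest rises and falls with a Gene ID and, from each list, up to 5 members with the largest change plus members that define it. Some members are not reported here. Others are given as examples of their list, chosen after their values were seen. Alternatives were another pseudocount, other filters, median-of-ratios scaling, a replicate block, a fit of the 6 libraries, edgeR with TMM on recovered reads, dropping the fold minimum, and removal of 1 library at a time.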

Additional observations from a re-analysis of the deposited data

How the results depend on the processing

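Between 1087 and 1186 features were changed with 1 library left out, 871 to 947 of them higher and 202 to 245 lower. A pseudocount of 0.1 gave 1816 (1573 higher, 86.6% of those called). A minimum mean of 10 CPM gave 446 (333 higher and 113 lower), with fewer features tested. edgeR gave 1805 (1464 higher and 341 lower), and 1139 of the 1143 were among them. With no minimum fold change 3359 passed (2400 higher, 71.4% of those called, and 959 lower), and among features with a Gene ID alone 147 were lower. No filter, a filter on the 6 libraries, median-of-ratios scaling, the fit of the 6 libraries and edgeR without E14 replicate 1 kept each count within 1.5 times. For the shifts in pseudocount and tool the cause was not tested.

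Deviations of same-numbered E14 and E17 libraries correlated at 0.0497, 0.00266 and 0.0813. For E17 replicates 1 and 3 no other E14 library correlated better, whereas E17 replicate 2 correlated better with E14 replicate 3 (0.00673). Correlations this small cannot settle whether the replicate numbers pair the libraries. With the replicate block in a fit of the 6 libraries, 1156 features were changed, 933 higher and 223 lower, and all 1143 were among them.

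Of the 160 named genes that passed, 23 lost their call under at least 1 alternative, and none turned. Under the pseudocount of 0.1 the genes that lost it were Atoh7, Dio3, Dlx1, Fgf15, Fgf3, Igf2bp1, Lmo3, Pax2, Rrm2 and Trim71, and with the replicate block they were Abca4, Mirg, Nefh and Sag. Of the 26 named genes that did not pass, 13 did so in the fit of the 6 libraries alone. Genes that did not pass and lay near 0 changed sign. Pax6 was at -0.046 with median-of-ratios scaling, -0.019 by edgeR, -0.027 by edgeR without E14 replicate 1, and -0.015 to 0.028 with 1 library left out. Under the same settings Ccnd1 was at -0.034, -0.0062 and -0.011, with a range of -0.00686 to 0.038. Cdh5, close to 0 reads, was at -0.067 with the pseudocount of 0.1 and ranged from -0.052 to 0.118. Calls of genes with fewer than about 3 reads per library were limited by depth.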

Other observations

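Hbb-y, the embryonic globin of primitive red blood cells, was below the filter on low values and was detected at E14 alone, at 1.30, 0.738 and 0.526 cpm against 0 reads in the 3 E17 libraries. It was not tested.

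Some list members stayed under the filter in nearly all libraries. Neurod6, a gene of an amacrine cell subset, had no read at E14 and 0.204, 0.353 and 0.414 cpm at E17, and Dkk2, a secreted Wnt modulator, measured 0.10, 0.105 and 0 cpm at E14 and 0.716, 0.794 and 0.518 cpm at E17. Neither was tested, and at this depth each E17 value of Neurod6 rests on a few reads.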
